A study of Homo sapiens with 8 samples.

Results

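The 43 genes described here encode the machinery of DNA replication and its immediate regulators and were picked by name from known roles. The rule uses no measured value, although the list was drawn up with earlier results of these data known. All 43 had a probe set with a single gene symbol on the array, as 43 of 19775 genes so annotated, with 83 of the 54675 probe sets. For the 25 genes with over 1 probe set, the one with the highest mean over the 8 arrays was used. By role, 12 belong to the replicative helicase and its partners, 4 to origin licensing, 6 to the sliding clamp and its loader, 3 to the single-strand binding protein RPA, 9 to the polymerases and primase, 2 to the joining of Okazaki fragments, 3 to deoxynucleotide supply and 4 to S phase entry and its checkpoint.

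Before S phase, the origin recognition complex (ORC), CDC6 and CDT1 load the MCM2-7 ring onto DNA, a step called licensing. Cyclin E with CDK2 then helps to fire the origins, CDC45 and GINS join MCM2-7 to form the active helicase, and polymerases alpha, delta and epsilon copy the opened strands with the help of RPA, the clamp PCNA and the clamp loader RFC. Many of these genes are known E2F targets in cycling cells and are transcribed most around the G1/S boundary.

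All RNA came from 293T, an established line of human embryonic kidney cells with the large T antigen of SV40, a viral protein that binds p53 and the RB proteins. The cells had been exposed for 10 h to 10 µM EerI (Eeyarestatin I, spelled Eer1 in the labels), to 10 µM CBU-028 or to 10 µM 5-NA, or were control cells, with 2 arrays in each of the 4 groups. EerI inhibits the degradation of misfolded proteins of the endoplasmic reticulum through the p97 ATPase; 5-NA (5-nitrofuryl-acrolein) stands for its nitrofuran-containing part without the aromatic part, and CBU-028 pairs the nitrofuran-containing part with another benzene-containing group. The labels and methods call each pair duplicates and a legend of the study speaks of a biological replicate, but no source used here says that they were separate cultures, so the p-values measure only the spread between these samples. No source used here gives the solvent of the control cells. One label of the 5-NA samples, the number in their titles, belongs to CBU-029 in a list of compounds, whereas all their other labels name 5-NA, and every 5-NA value rests on those.

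The deposited values are on the log2 scale, made with the RMA algorithm, so a difference of 1 is a 2-fold change. Of 6 markers of the line, VIM, NEFL and KRT18 lay at the 97.3 to 99.3 percentiles of all probe sets, NEFM at the 87.2, KRT8 at the 82.3 and PAX2 at the 45.9 percentile. The markers of other cell types lay from the 13.8 percentile (PTPRC of lymphocytes) to the 63.8 (CD79A of B lymphocytes) and 79.7 (COL1A1 of fibroblasts). Duplicates spread most with CBU-028, with a residual SD of 0.163, then with 5-NA (0.119) and EerI (0.0974), against 0.0921 in control. The 3′ minus 5′ difference of ACTB, a sign of RNA quality, was 0.363 on the array of 5-NA replicate 2 and 0.0743 to 0.196 on the other arrays. A probe set for 18S ribosomal RNA stood at 12.6 and 12.8 with 5-NA, at 12.9 and 12.5 with CBU-028 and at 11.9 and 12.1 with EerI, against 11.7 and 11.7 in control. The part of these differences in the results was not tested. All replication genes were well within the measured range, with means from 8.35 to 13.4 against array medians of 6.89 to 6.93. Lower RNA per cell and fewer cells in S phase cannot be told apart in RNA from whole cultures.

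**Figure D1:**
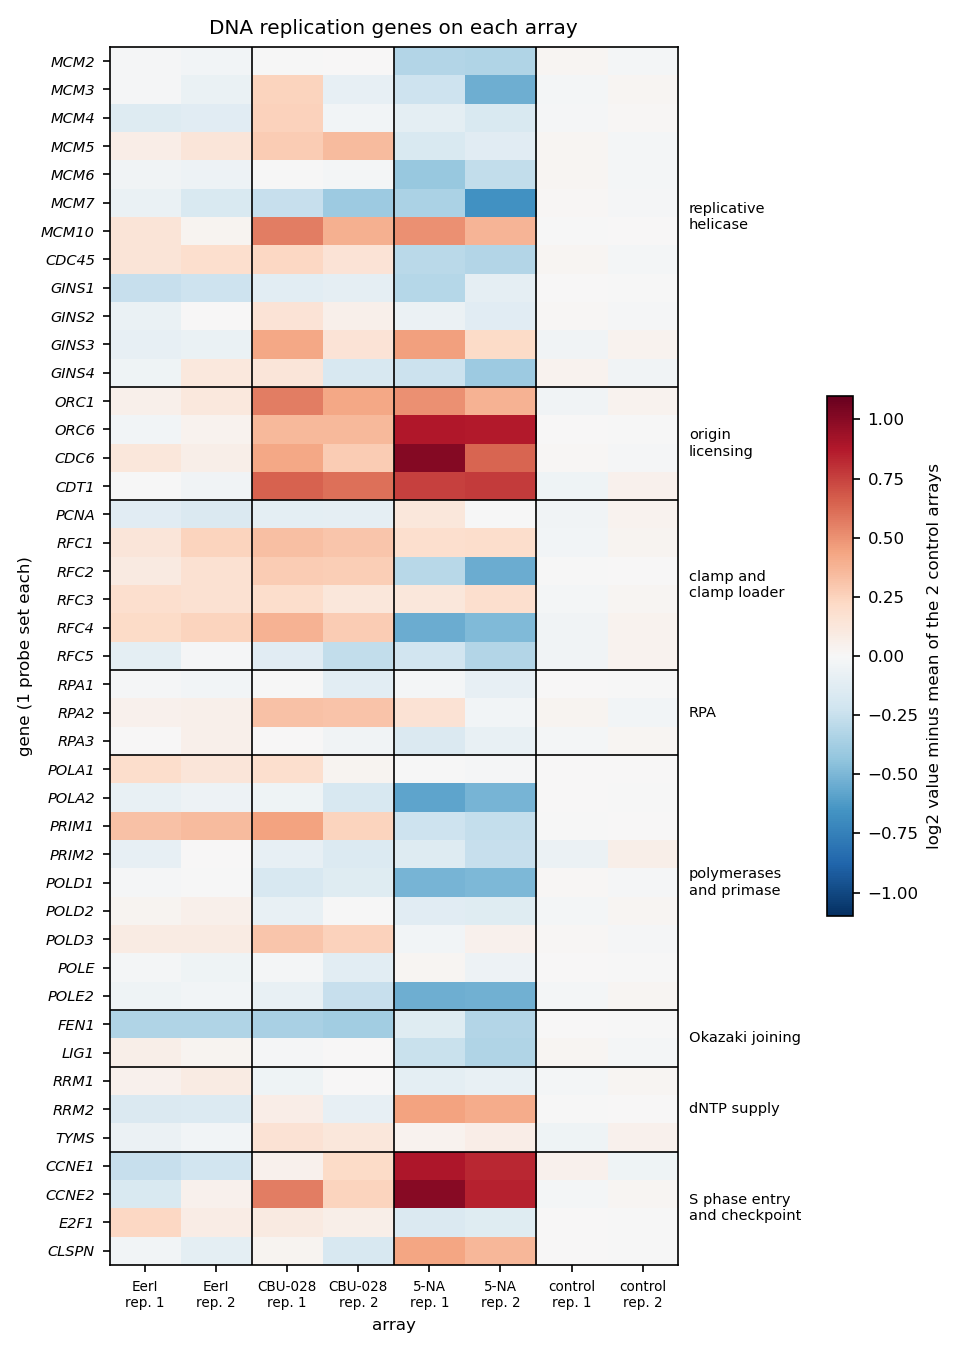
Each row is 1 of the 43 replication genes and each column 1 array; colour gives the log2 value minus the mean of the 2 control arrays. With 5-NA, the 4 origin licensing genes and the cyclin E genes CCNE1 and CCNE2 are red on both arrays, while RFC4, POLA2, POLD1 and POLE2 are blue on both.

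The called replication genes split in 2 directions with 5-NA, most of the few called with CBU-028 were higher, and none was called with EerI. With 5-NA, 9 of the 43 genes were higher than in control and 10 lower, at an adjusted p under 0.05 from limma, where 7.87% of all genes were higher and 10.9% lower. Licensing factors, both cyclins E, the ribonucleotide reductase subunit RRM2, CLSPN and MCM10 made up the rise, and subunits of the helicase, the clamp loader, all 3 replicative polymerases and ligase LIG1 the fall. With CBU-028, 8 genes were higher and 1 lower, where 5.49% of all genes were higher and 7.1% lower. Bright genes were called more often than dim ones: among the 9545 genes with a mean of at least 8, which include all 43, 12.6% were higher and 18.1% lower with 5-NA, and 9.24% were higher and 10.9% lower with CBU-028. Beside those shares, the 20.9% of replication genes higher with 5-NA and the 18.6% higher with CBU-028 lay above the background, the 23.3% lower with 5-NA lay nearer to it, and the 2.33% lower with CBU-028 lay below it, with no test of these differences. No replication gene reached a 2-fold change against control with any compound.

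The median log2 fold change of the 43 genes was -0.12 with 5-NA (-0.03 for all genes), 0.08 with CBU-028 (-0.01 for all genes) and -0.02 with EerI (0.00 for all genes). Both 5-NA arrays lay above both control arrays for 12 genes and below them for 26, where 26.2% and 36.3% of all genes did so. With CBU-028, both arrays lay above both control arrays for 21 genes and below them for 11 (25.7% and 29.4% of all genes). All 3 comparisons share the 2 control arrays. Leaving out either control array cut the calls with 5-NA to 5 higher and 4 lower and those with CBU-028 to 1 higher and 0 lower. Without 5-NA replicate 1 the calls with 5-NA were 5 higher and 6 lower, and without 5-NA replicate 2 they were 8 higher and 5 lower. Without CBU-028 replicate 1, 5 were higher and 0 lower with CBU-028, and without either EerI array 4 were higher and 0 lower. In all 8 fits that each left out 1 array, ORC6, CDC6, CDT1, CCNE1 and CCNE2 stayed higher and RFC4, POLA2, POLD1 and POLE2 stayed lower with 5-NA, while with CBU-028 only CDT1 kept its call.

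**Figure D2:**
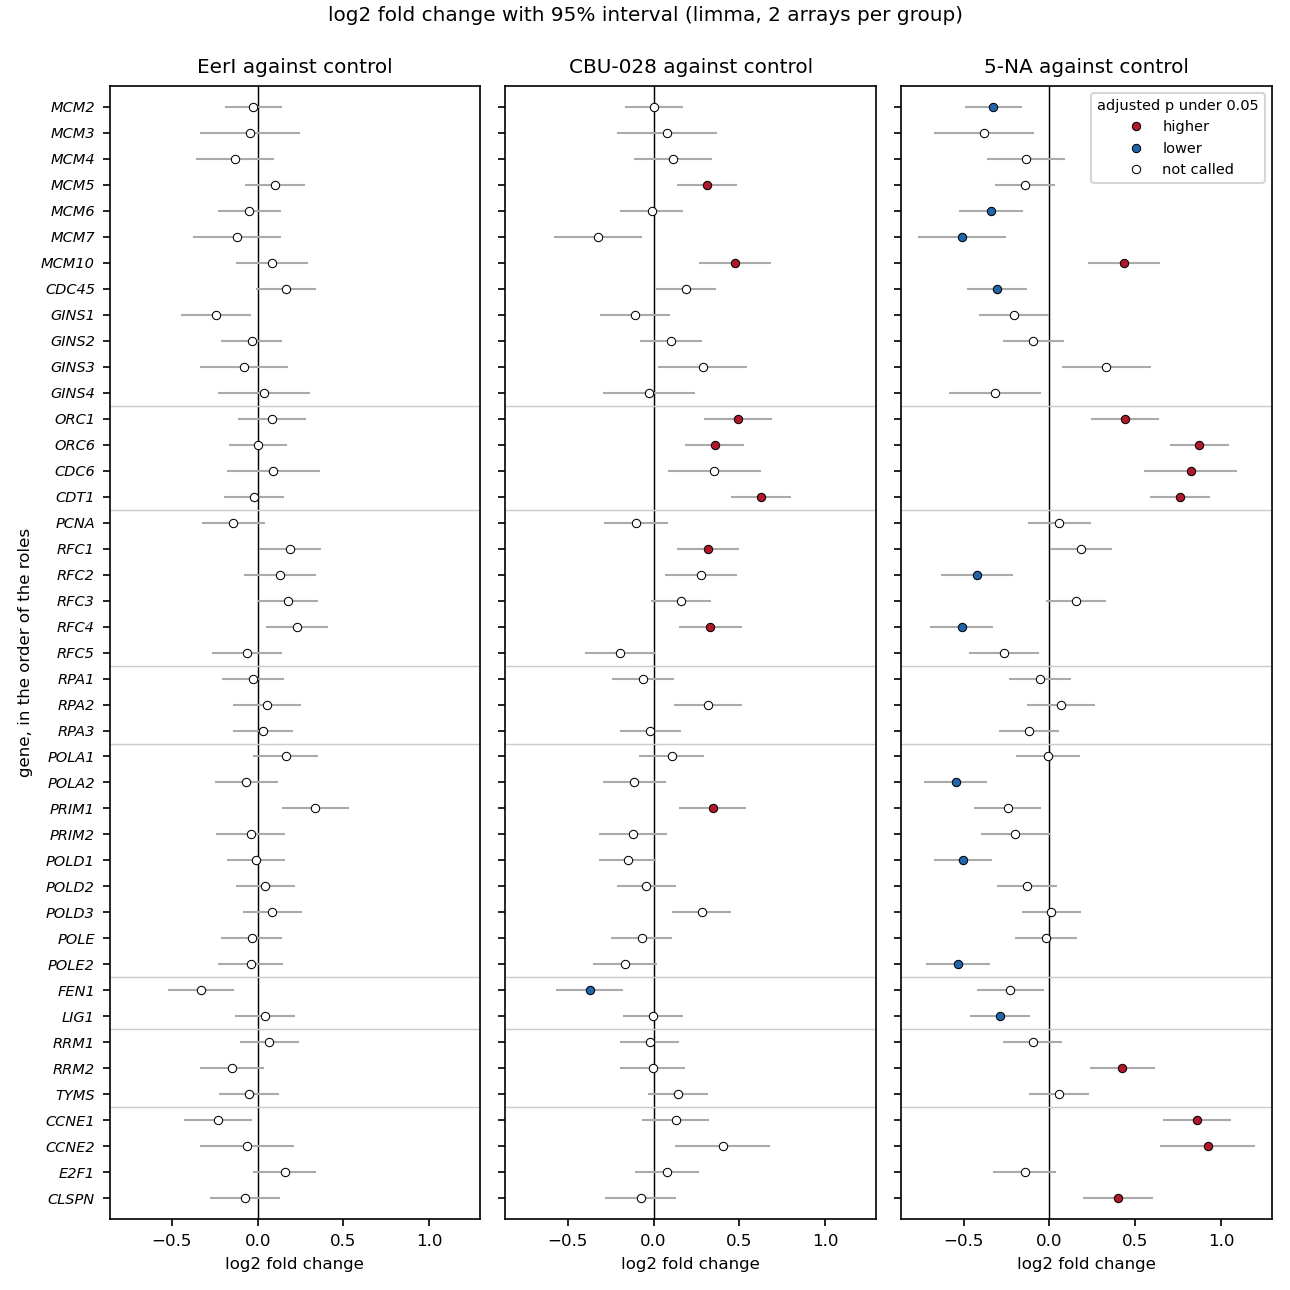
Points give the log2 fold change of each replication gene against control for EerI, CBU-028 and 5-NA, and lines its 95% interval from limma; filled points passed an adjusted p under 0.05. The 5-NA panel has 9 genes to the right and 10 to the left among the filled points, the CBU-028 panel 8 and 1, and the EerI panel none.

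Origin licensing, listed here as only 4 genes, was the 1 role in which every gene was called with 5-NA. The other ORC genes, ORC2 to ORC5, were counted among the 35 further replication factors. Of those factors 3 (8.57%) were higher with 5-NA, near the share of all genes. With 5-NA, all 4 listed genes (ORC1, ORC6, CDC6 and CDT1) were higher than in control, with a median log2 fold change of 0.79. With CBU-028 3 of the 4 were higher, with a median of 0.43. Of all genes, 7.87% were higher with 5-NA and 5.49% with CBU-028. ORC6, the smallest subunit of the origin recognition complex, stood at 11.73 and 11.72 with 5-NA, 11.21 and 11.21 with CBU-028 and 10.82 and 10.89 with EerI, against 10.86 and 10.85 in control. The CBU-028 and 5-NA arrays thus lay above every control and EerI array, with the 5-NA arrays highest. The log2 fold change of ORC6 was 0.87 with 5-NA (SE 0.0752, adjusted p = 0.000286 from limma) and 0.36 with CBU-028 (adjusted p = 0.0191 from limma).

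CDT1, which brings the MCM2-7 ring to the origin, stood at 11.40 and 11.41 with 5-NA, 11.29 and 11.25 with CBU-028 and 10.64 and 10.61 with EerI, against 10.60 and 10.69 in control. Both 5-NA and CBU-028 arrays lay well above the others, by a log2 fold change of 0.76 for 5-NA (adjusted p = 0.000549 from limma) and 0.62 for CBU-028 (adjusted p = 0.00176 from limma). A second CDT1 probe set disagreed, with 0.17 for 5-NA and 0.28 for CBU-028, neither called, so the size of the CDT1 change rests on a probe set of the kind that can bind other transcripts. ORC6 has only a probe set of that kind. Without such probe sets, CDT1 was not called and ORC6 had no value, which left ORC1 and CDC6 as the licensing genes called with 5-NA.

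CDC6, the ATPase that loads the ring together with ORC, stood at 11.80 and 11.43 with 5-NA, 11.22 and 11.07 with CBU-028 and 10.91 and 10.86 with EerI, against 10.81 and 10.78 in control. The 5-NA arrays differed from each other by more than those of any other group, yet both lay above all other arrays. Its log2 fold change was 0.82 with 5-NA (adjusted p = 0.00247 from limma), and a second CDC6 probe set gave 0.89. With CBU-028 it was 0.36, which did not pass (adjusted p = 0.106 from limma). ORC1, the ATPase subunit of ORC, stood at 10.18 and 10.05 with 5-NA, 10.24 and 10.10 with CBU-028 and 9.73 and 9.79 with EerI, against 9.64 and 9.71 in control. The 5-NA and CBU-028 arrays overlapped each other and lay above the rest, with log2 fold changes of 0.44 for 5-NA (adjusted p = 0.0102 from limma) and 0.49 for CBU-028 (adjusted p = 0.00914 from limma).

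The promoters of CDC6 and CDT1 are shown from RefSeq (GRCh38.p14), each with 250 bases before and 50 bases after the start of the gene. Of the 4 licensing genes, these 2 have windows with an exact match to the E2F spellings searched. Capitals mark matches to 4 spellings of the E2F motif (TTTCCCGC, TTTGGCGC, TTTCGCGC and TTTGCCGC) read on either strand. CDC6 lies at chr17:40287629-40287928 on the plus strand, with the match starting at base 8 of the transcribed part, and CDT1 at chr16:88803539-88803838 on the plus strand, with the match starting 35 bases before the start. Each promoter holds 1 match, and those of ORC1 and ORC6, which were also higher with 5-NA, hold 0. No other spelling was searched, so 0 matches does not mean that a promoter has no E2F site.
CDC6: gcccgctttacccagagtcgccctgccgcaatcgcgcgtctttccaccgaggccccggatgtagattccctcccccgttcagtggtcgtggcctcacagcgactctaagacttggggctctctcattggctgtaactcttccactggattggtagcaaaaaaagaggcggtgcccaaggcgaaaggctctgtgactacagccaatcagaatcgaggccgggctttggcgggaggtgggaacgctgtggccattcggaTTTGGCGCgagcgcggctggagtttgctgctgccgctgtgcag
CDT1: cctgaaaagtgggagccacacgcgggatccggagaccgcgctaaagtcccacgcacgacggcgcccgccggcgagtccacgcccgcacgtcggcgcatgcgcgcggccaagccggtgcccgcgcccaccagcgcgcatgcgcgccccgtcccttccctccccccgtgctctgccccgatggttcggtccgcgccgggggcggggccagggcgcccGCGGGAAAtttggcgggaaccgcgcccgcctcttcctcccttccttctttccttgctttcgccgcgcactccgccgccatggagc

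Of the 4 S phase entry genes, 3 (CCNE1, CCNE2 and CLSPN) were higher with 5-NA than in control and 0 with CBU-028 or EerI. With 5-NA, 7.87% of all genes were higher, and 12.6% of those with a mean of at least 8. In the direct tests these 3 were also higher with 5-NA than with either compound on the probe sets used. For CLSPN, a nearly as bright probe set, given below, did not show this against CBU-028. A dimmer CCNE2 probe set stood at 10.40 and 9.93 with 5-NA and 10.26 and 9.61 with CBU-028, so that its arrays overlapped. The call of CCNE2 between 5-NA and CBU-028 was lost in the adjusted ANOVA of the methods, with array weights and with the mean of all probe sets. The fourth gene, E2F1, was lower with 5-NA than with EerI (-0.30, adjusted p = 0.0392 from limma). That E2F1 call was lost in the adjusted ANOVA of the methods, with the replicate block, with the compared arrays alone and with joint adjustment over all comparisons. CCNE1, the first cyclin E gene, stood at 11.46 and 11.40 with 5-NA, 10.62 and 10.78 with CBU-028 and 10.32 and 10.36 with EerI, against 10.62 and 10.53 in control. Only the 5-NA arrays stood clear above control, by a log2 fold change of 0.86 (adjusted p = 0.000543 from limma), while both EerI arrays lay below both control arrays at -0.23 (adjusted p = 0.409 from limma). CCNE2, the second cyclin E gene, stood at 11.20 and 11.05 with 5-NA, 10.76 and 10.45 with CBU-028 and 10.03 and 10.25 with EerI, against 10.18 and 10.23 in control. It had the largest log2 fold change of the 43 genes against control, 0.92 with 5-NA (SE 0.122, adjusted p = 0.00165 from limma), and 0.40 with CBU-028 (adjusted p = 0.0756 from limma).

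CLSPN encodes claspin, which carries the signal from ATR to CHK1 at stalled forks. It stood at 8.81 and 8.75 with 5-NA, 8.41 and 8.20 with CBU-028 and 8.35 and 8.27 with EerI, against 8.39 and 8.37 in control, with a log2 fold change of 0.40 for 5-NA (adjusted p = 0.0181 from limma). A nearly as bright CLSPN probe set stood at 8.47 and 8.27 with 5-NA and 8.58 and 8.44 with CBU-028. With EerI it stood at 8.28 and 8.03, against 8.18 and 8.19 in control. Its 5-NA arrays thus overlapped those of CBU-028, whereas on the dimmer CLSPN probe sets both 5-NA arrays lay above both CBU-028 arrays. The transcription factor E2F1 gave -0.15 with 5-NA and was not called, whereas its second probe set gave -0.39 and was (adjusted p = 0.0182 from limma).

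**Figure D3:**
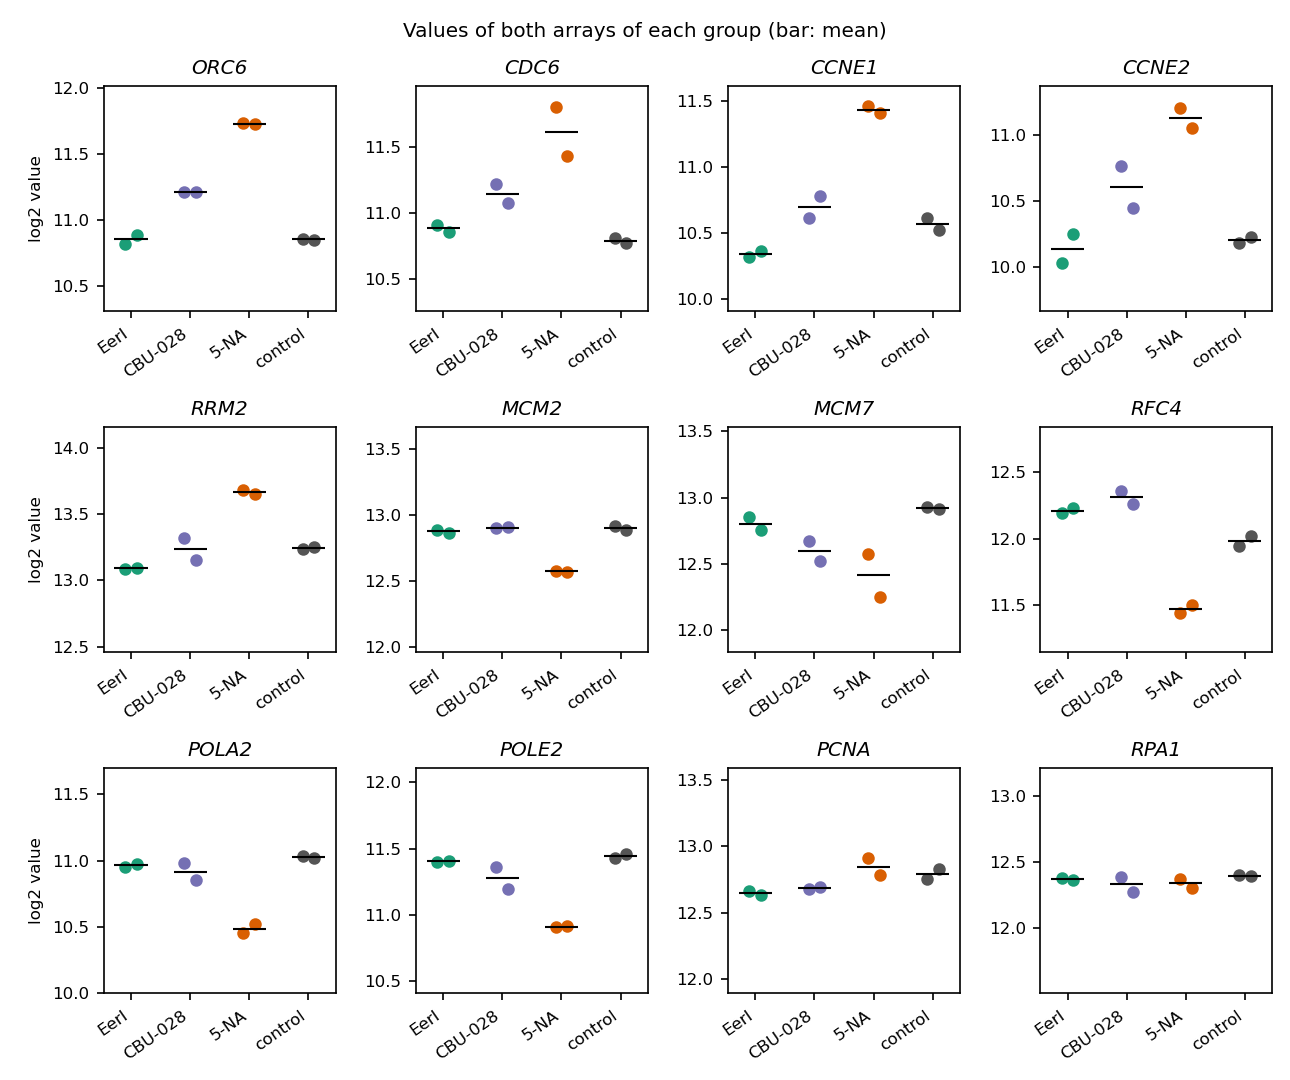
Dots show the log2 value of both arrays of EerI, CBU-028, 5-NA and control for 12 replication genes, bars the mean, and every panel spans the same log2 range. ORC6, CDC6, CCNE1, CCNE2 and RRM2 are highest with 5-NA, and MCM2, RFC4, POLA2 and POLE2 are lowest with it. MCM7 has its lowest mean with 5-NA, but the dots overlap those of CBU-028. PCNA and RPA1 differ little between groups.

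In the replicative helicase most called genes were lower with 5-NA, unlike those of licensing. Of 12 genes, 4 were lower with 5-NA (MCM2, MCM6, MCM7 and CDC45) and 1 higher (MCM10), with a median log2 fold change of -0.26. The lower genes are 33.3% of the 12, where 10.9% of all genes and 18.1% of those with a mean of at least 8 were lower. The 1 higher gene is 8.33%, near the 7.87% of all genes. With CBU-028, 2 were higher (MCM5 and MCM10) and 0 lower, with a median of 0.09. Of all genes, 5.49% were higher with CBU-028 and 7.1% lower. MCM2 stood at 12.58 and 12.57 with 5-NA, 12.90 and 12.91 with CBU-028 and 12.89 and 12.87 with EerI, against 12.92 and 12.88 in control. Its arrays were close within each group, and those of 5-NA alone stood apart, at a log2 fold change of -0.33 (adjusted p = 0.018 from limma). MCM7, another subunit of the ring, stood at 12.57 and 12.25 with 5-NA, 12.67 and 12.52 with CBU-028 and 12.85 and 12.76 with EerI, against 12.93 and 12.91 in control. Its log2 fold change with 5-NA was -0.51 (adjusted p = 0.0167 from limma), and a second probe set gave -0.35, called as well. Leaving out either control array ended the calls of all 4 lower helicase genes.

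MCM6 gave -0.34 with 5-NA (adjusted p = 0.0226 from limma), and CDC45, which joins the ring to form the active helicase, -0.31 (adjusted p = 0.0276 from limma). MCM10, a factor that helps to activate the helicase, stood at 11.01 and 10.88 with 5-NA, 11.07 and 10.90 with CBU-028 and 10.65 and 10.54 with EerI, against 10.51 and 10.52 in control. Both of the first groups lay above the rest, with log2 fold changes of 0.44 for 5-NA (adjusted p = 0.0133 from limma) and 0.47 for CBU-028 (adjusted p = 0.0135 from limma). The 2 other MCM10 probe sets gave 0.04 and 0.18 with 5-NA, not called, and 0.26 and 0.40 with CBU-028, the last of them called. MCM5 was higher with CBU-028 (0.31, adjusted p = 0.0371 from limma) and gave -0.14 with 5-NA, while its second probe set was lower with 5-NA (-0.32). The GINS genes were not called against control with any compound. GINS3 was higher with 5-NA than with EerI (0.41), a call lost in the adjusted ANOVA of the methods and with joint adjustment over all comparisons. The probe sets of GINS4 disagreed for 5-NA against control, from -0.32 for the brightest, not called, to 0.62 for a dimmer one, which was called.

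The promoters of MCM2 and MCM6, ring subunits that fell with 5-NA, carry matches to the same E2F spellings as those of CDC6 and CDT1 above. Here matches on opposite strands overlap in a single run of capitals, which MCM2 holds just after its start and MCM6 holds 2 times before its start. MCM2 lies at chr3:127598161-127598460 on the plus strand and MCM6 at chr2:135876394-135876693 on the minus strand (RefSeq, GRCh38.p14).
MCM2: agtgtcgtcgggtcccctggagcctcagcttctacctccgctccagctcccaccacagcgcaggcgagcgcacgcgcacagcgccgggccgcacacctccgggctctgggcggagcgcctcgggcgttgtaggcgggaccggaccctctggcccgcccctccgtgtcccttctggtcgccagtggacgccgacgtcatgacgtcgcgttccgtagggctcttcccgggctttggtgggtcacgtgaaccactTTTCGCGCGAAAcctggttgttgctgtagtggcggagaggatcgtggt
MCM6: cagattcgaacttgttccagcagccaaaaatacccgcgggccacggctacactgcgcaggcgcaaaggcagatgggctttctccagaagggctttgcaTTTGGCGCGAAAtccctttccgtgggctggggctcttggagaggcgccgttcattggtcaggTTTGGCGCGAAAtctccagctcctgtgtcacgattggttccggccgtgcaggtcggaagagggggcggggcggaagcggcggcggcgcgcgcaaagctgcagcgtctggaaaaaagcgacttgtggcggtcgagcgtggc

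Of the 43 genes, 36 had a promoter in the RefSeq table, and 19 of these (52.8%) held an E2F match, against 5.36% of the 15382 genes of the array with a promoter there. The share was 37.5% of 8 genes higher with 5-NA, 60% of 10 genes lower with 5-NA and 55.6% of 18 genes not called. Matches thus stood in genes of either direction, and these counts are a description of the letters in the windows. The letters CCAAT, on either strand, were in 61.1% of the 36 and in 41.7% of the array genes. TTTGAA, likewise on either strand, was in 2.78% of the 36 and in 15.6% of the array genes.

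The clamp loader held the gene with the largest difference between 5-NA and CBU-028. RFC4, a small subunit of the loader, stood at 11.44 and 11.50 with 5-NA, 12.36 and 12.26 with CBU-028 and 12.19 and 12.23 with EerI, against 11.94 and 12.02 in control. The 5-NA arrays lay below control and the CBU-028 and EerI arrays above it. Its log2 fold change against control was -0.51 with 5-NA (adjusted p = 0.00353 from limma) and 0.33 with CBU-028 (adjusted p = 0.034 from limma), while that of 0.23 with EerI did not pass (adjusted p = 0.367 from limma). RFC2, another small subunit, stood at 10.98 and 10.74 with 5-NA, 11.56 and 11.56 with CBU-028 and 11.38 and 11.45 with EerI, against 11.28 and 11.28 in control. It followed the same order of groups, with a log2 fold change of -0.42 for 5-NA (adjusted p = 0.0159 from limma) and an uncalled 0.28 for CBU-028.

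RFC1, the large subunit of the loader, was higher with CBU-028 (0.31, adjusted p = 0.0398 from limma) on a probe set of the kind that can bind other transcripts, and its other probe sets, at 0.21 and -0.19, were not called. RFC3 and RFC5 were not called with any compound. PCNA, the clamp itself, stood at 12.91 and 12.78 with 5-NA, 12.68 and 12.69 with CBU-028 and 12.67 and 12.63 with EerI, against 12.75 and 12.83 in control. Its 5-NA arrays overlapped those of control, and its log2 fold change with 5-NA was 0.06, with a 95% interval from -0.13 to 0.24. None of the 3 RPA genes was called with any compound. RPA2 came nearest, at 12.84 and 12.84 with CBU-028 against 12.55 and 12.49 in control (0.32, adjusted p = 0.0539 from limma), with 12.68 and 12.49 for 5-NA and 12.57 and 12.58 for EerI.

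Each of the 3 replicative polymerases had a subunit that fell with 5-NA, so that 3 of the 9 genes of polymerases and primase were lower and 0 higher. The lower genes are 33.3% of the 9, where 10.9% of all genes and 18.1% of those with a mean of at least 8 were lower. POLA2, the B subunit of polymerase alpha, stood at 10.45 and 10.52 with 5-NA, 10.98 and 10.85 with CBU-028 and 10.95 and 10.98 with EerI, against 11.04 and 11.02 in control. Only the 5-NA arrays stood apart, at a log2 fold change of -0.55 (SE 0.0812, adjusted p = 0.00276 from limma); 2 dimmer POLA2 probe sets gave -0.02 and -0.15 and were not called. POLD1, the catalytic subunit of polymerase delta, stood at 10.69 and 10.70 with 5-NA, 11.03 and 11.07 with CBU-028 and 11.19 and 11.20 with EerI, against 11.22 and 11.18 in control (-0.50 for 5-NA, adjusted p = 0.00269 from limma). POLE2, the second subunit of polymerase epsilon, stood at 10.91 and 10.91 with 5-NA, 11.36 and 11.19 with CBU-028 and 11.40 and 11.41 with EerI, against 11.43 and 11.46 in control (-0.53 for 5-NA, adjusted p = 0.00349 from limma). The duplicates of both genes agreed to within 0.04 with 5-NA, and these calls held without any single array.

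The other polymerase and primase genes were not called with 5-NA, although 8 of the 9 log2 fold changes were below 0. POLE, the catalytic subunit of polymerase epsilon, gave -0.02 with 5-NA (95% interval -0.20 to 0.16) and POLA1, that of polymerase alpha, -0.01 (95% interval -0.20 to 0.18). POLD2 stood at 11.49 and 11.49 with 5-NA, 11.54 and 11.62 with CBU-028 and 11.65 and 11.68 with EerI, against 11.60 and 11.64 in control, which gave -0.13 for 5-NA (adjusted p = 0.324 from limma). POLD3 and the primase subunit PRIM2 were not called with any compound. PRIM1, the catalytic primase subunit, stood at 11.14 and 11.11 with 5-NA, 11.81 and 11.62 with CBU-028 and 11.70 and 11.72 with EerI, against 11.37 and 11.37 in control. Its 5-NA arrays lay below control and its CBU-028 and EerI arrays above it. The log2 fold change was 0.34 with EerI, not called (adjusted p = 0.185 from limma). The p-values were adjusted within each comparison with control, in which 288 probe sets were called for EerI and 5285 for CBU-028. PRIM1 was not called between EerI and CBU-028. With CBU-028 the change, also 0.34, was called (adjusted p = 0.0393 from limma). That call was lost in 14 of 24 alternatives, among them the adjusted ANOVA of the methods, the replicate block and array weights. Several settings, among them a trend in the prior variance, array weights and the mean of all probe sets of a gene, also called PRIM1 lower with 5-NA.

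FEN1, the flap endonuclease that trims Okazaki fragments, was the 1 replication gene lower with CBU-028. It stood at 12.51 and 12.31 with 5-NA, 12.28 and 12.25 with CBU-028 and 12.31 and 12.30 with EerI, against 12.64 and 12.64 in control. All treated arrays lay below both control arrays, with log2 fold changes of -0.37 for CBU-028 (adjusted p = 0.0282 from limma), -0.33 for EerI (adjusted p = 0.189 from limma) and -0.23 for 5-NA (adjusted p = 0.119 from limma). Its call with CBU-028 was lost without either control array, either EerI array or CBU-028 replicate 1. The adjusted ANOVA of the methods and the compared arrays alone did not call FEN1 with CBU-028 either, and that ANOVA called POLD1 lower instead. LIG1, the ligase that seals the fragments, was lower with 5-NA (-0.29, adjusted p = 0.0357 from limma) and gave 0.00 with CBU-028.

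Of the deoxynucleotide genes, RRM2, the regulated subunit of ribonucleotide reductase, rose with 5-NA. It stood at 13.68 and 13.65 with 5-NA, 13.32 and 13.15 with CBU-028 and 13.09 and 13.09 with EerI, against 13.23 and 13.25 in control. The 5-NA arrays were clear of the others, at a log2 fold change of 0.42 (adjusted p = 0.00935 from limma), and a second probe set gave 0.54, called as well. Its partner RRM1 gave -0.10 (95% interval -0.27 to 0.08). A second RRM1 probe set stood lower with 5-NA, at 11.97 and 11.72 against 12.14 and 12.15 in control. TYMS, thymidylate synthase, stood at 13.38 and 13.41 with 5-NA, 13.49 and 13.46 with CBU-028 and 13.27 and 13.30 with EerI, against 13.29 and 13.38 in control. No TYMS difference against control passed, though a much dimmer TYMS probe set was higher with 5-NA at 0.66 (adjusted p = 0.0138 from limma).

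With EerI, 0 of the 43 genes were called against control, where 0.506% of all genes were higher and 0.263% lower (0.87% and 0.45% of those with a mean of at least 8). At an unadjusted p under 0.05, 4 genes were higher and 3 lower, and the smallest adjusted p was 0.185 from limma, for PRIM1. The ANOVA of the methods with adjustment also called 0, whereas array weights, a trend in the prior variance of limma and adjustment over all 6 comparisons each called PRIM1 higher and FEN1 lower. The log2 fold changes ran from -0.33 for FEN1 to 0.34 for PRIM1. The 95% intervals still allowed changes with EerI: for ORC6 that interval was -0.17 to 0.17 and for CDT1 -0.20 to 0.15, whereas for CDC6 it was -0.18 to 0.36. Both EerI arrays lay above both control arrays for 17 genes and below them for 14, where 24.3% and 27.2% of all genes did so.

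The 3 compounds were given at the same dose and time, and all 3 pairs were compared directly. Between 5-NA, which lacks the aromatic part, and EerI, 10 genes were higher with 5-NA and 11 lower, where 7.93% and 9.66% of all genes were, and 12.9% and 15.4% of those with a mean of at least 8. CCNE1 differed by a log2 value of 1.09 (SE 0.0871, adjusted p = 0.000294 from limma), the 1 difference of the set past 2-fold, CCNE2 by 0.98 (adjusted p = 0.00141 from limma) and ORC6 by 0.87 (adjusted p = 0.000354 from limma). Genes on the other side included RFC4, at -0.74 (adjusted p = 0.000828 from limma), PRIM1, at -0.58 (adjusted p = 0.00321 from limma), and CDC45, at -0.47 (adjusted p = 0.00467 from limma). RFC2, POLD1, POLE2 and POLA2 lay between PRIM1 and CDC45. In licensing, all 4 genes were higher with 5-NA than with EerI, although a second CDT1 probe set gave -0.03. Among polymerases and primase 4 of 9 were lower. The counts fell to 6 higher and 7 lower without EerI replicate 1, 6 and 6 without EerI replicate 2, 6 and 9 without 5-NA replicate 1 and 7 and 7 without 5-NA replicate 2.

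Between 5-NA and CBU-028, 6 genes were higher with 5-NA and 11 lower, where 6.47% and 7.33% of all genes were, and 9.99% and 12.4% of those with a mean of at least 8. The largest differences were those of RFC4, at -0.84 (95% interval -1.03 to -0.66, adjusted p = 0.000931 from limma), CCNE1, at 0.73 (adjusted p = 0.00187 from limma), and RFC2, at -0.70 (adjusted p = 0.0028 from limma). ORC6 was higher with 5-NA than with CBU-028 by 0.52 (adjusted p = 0.00387 from limma) and CDC6 by 0.47 (adjusted p = 0.0382 from limma). The other licensing genes did not differ detectably, with differences of 0.14 for CDT1 (95% interval -0.04 to 0.31) and -0.05 for ORC1 (95% interval -0.25 to 0.15). MCM10 gave -0.04, with a 95% interval from -0.25 to 0.17. Without 5-NA replicate 1 the counts were 2 higher and 5 lower, without 5-NA replicate 2 they were 3 and 7, and without either EerI or either control array 7 were lower. In each of those fits RFC4, RFC2, PRIM1, CDC45 and MCM5 stayed lower and ORC6 and CCNE1 higher.

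Between CBU-028 and EerI, which share the nitrofuran-containing part and differ in the aromatic part, 3 genes were higher with CBU-028 and 0 lower, where 1.6% and 2.13% of all genes were, and 2.82% and 2.92% of those with a mean of at least 8. All 3 were licensing genes: CDT1 differed by 0.65 (adjusted p = 0.00759 from limma), ORC1 by 0.41 (adjusted p = 0.0441 from limma) and ORC6 by 0.35 (adjusted p = 0.0426 from limma). The second CDT1 probe set gave only 0.08, and ORC6 has only a probe set of the kind that can bind other transcripts. Without such probe sets ORC1 was the 1 gene called. The polymerases showed no call, with differences of -0.05 for POLA2 (95% interval -0.23 to 0.14) and -0.12 for POLE2 (95% interval -0.31 to 0.06). Without either EerI array, 0 of the 3 calls between CBU-028 and EerI passed. Adjusted over all 6 comparisons together, the counts were 9 higher and 9 lower for 5-NA against EerI, 6 and 10 for 5-NA against CBU-028, and 6 and 0 for CBU-028 against EerI.

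Further genes around replication were called in either direction. Of 35 further replication factors, 3 were higher and 2 lower with 5-NA, 3 higher and 3 lower with CBU-028, and 0 in either direction with EerI, so that 14.3% were called with 5-NA and 17.1% with CBU-028, where 18.8% and 12.6% of all genes were. Without control replicate 2, 0 of these factors stayed higher with CBU-028. Among them, the histone chaperone ASF1A gave 0.53 with 5-NA and 0.30 with CBU-028, and MCM9, a relative of the ring subunits, 0.35 with 5-NA and 0.53 with CBU-028, all 4 called. TOP2A, topoisomerase II alpha, was lower with CBU-028 (-0.55, adjusted p = 0.00831 from limma). None of the 9 further nucleotide enzymes measured was called with any compound against control; at most 1 was lower with 5-NA when an array was left out.

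Regulators of the G1/S step moved in both directions. Of all genes, 7.87% were higher and 10.9% lower with 5-NA, and 5.49% were higher and 7.1% lower with CBU-028. Of the 12 genes of the E2F, DP and RB family, 3 were higher and 3 lower with 5-NA, and 3 higher and 1 lower with CBU-028. The 1 lower gene with CBU-028 is 8.33% of the 12, near the share of all genes. E2F5 gave -0.81 with 5-NA (adjusted p = 0.000615 from limma) and -0.44 with CBU-028, RBL2, which encodes the RB relative p130, -0.72 with 5-NA (adjusted p = 0.00313 from limma), and E2F6, a repressor of the family, 0.52 with 5-NA and 0.60 with CBU-028. Of 14 G1/S kinases, cyclins and inhibitors, 3 were higher and 2 lower with 5-NA, and 1 higher and 3 lower with CBU-028. The 14.3% lower with 5-NA and the 7.14% higher with CBU-028 lay near the shares of all genes. CDKN1A, the CDK inhibitor p21, stood at 11.38 and 11.13 with 5-NA, 10.39 and 10.45 with CBU-028 and 10.15 and 10.13 with EerI, against 10.04 and 10.06 in control. It rose by a log2 value of 1.21 with 5-NA (adjusted p = 0.000205 from limma) and 0.37 with CBU-028. CDC25A, the phosphatase that activates CDK2, was higher with 5-NA (0.78, adjusted p = 0.00106 from limma), and CDKN1B, the inhibitor p27, was lower with CBU-028 (-0.75, adjusted p = 0.00228 from limma).

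Of 12 S phase checkpoint genes, 4 were higher and 1 lower with 5-NA, and 3 higher and 0 lower with CBU-028. The 1 lower gene with 5-NA is 8.33% of the 12, near the 10.9% of all genes. The higher genes are 33.3% with 5-NA and 25% with CBU-028, where 7.87% and 5.49% of all genes were higher. The helicase BLM gave 0.35 with 5-NA and 0.42 with CBU-028, both called, WRN 0.41 with 5-NA, and the kinase CHEK2 -0.49 with 5-NA. Leaving out 5-NA replicate 2 or either control array reduced the lower calls with 5-NA to 0 in this list, in that of further factors and in that of G1/S genes. Higher calls of S phase checkpoint genes likewise fell to 0, with 5-NA and with CBU-028, without either control array. The 1 higher G1/S call with CBU-028 was lost without either control array, either EerI array or CBU-028 replicate 1, and the 1 lower call of the E2F, DP and RB family with CBU-028 without either control array.

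Genes of mitosis and G2/M were lower with both CBU-028 and 5-NA, in the same samples in which most or all of the listed licensing genes were higher. Of 22 such genes, 16 were lower with CBU-028 and 11 with 5-NA, 0 were higher, and 0 were called with EerI, with medians of -0.48 for CBU-028, -0.29 for 5-NA and -0.10 for EerI. Of all genes, 7.1% were lower with CBU-028 and 10.9% with 5-NA. KIF20A, a mitotic kinesin, gave -1.07 with CBU-028 (adjusted p = 0.000491 from limma) and -0.66 with 5-NA. CCNB1, cyclin B1, gave -0.82 with CBU-028 and -0.57 with 5-NA, and the kinase PLK1 -0.84 with CBU-028 and -0.53 with 5-NA. The counts of lower mitosis genes ran down to 9 with CBU-028, without control replicate 2, and to 6 with 5-NA, without 5-NA replicate 2 or control replicate 2. The part of a shift of cells between cycle phases in the replication gene values was not tested.

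**Figure D4:**
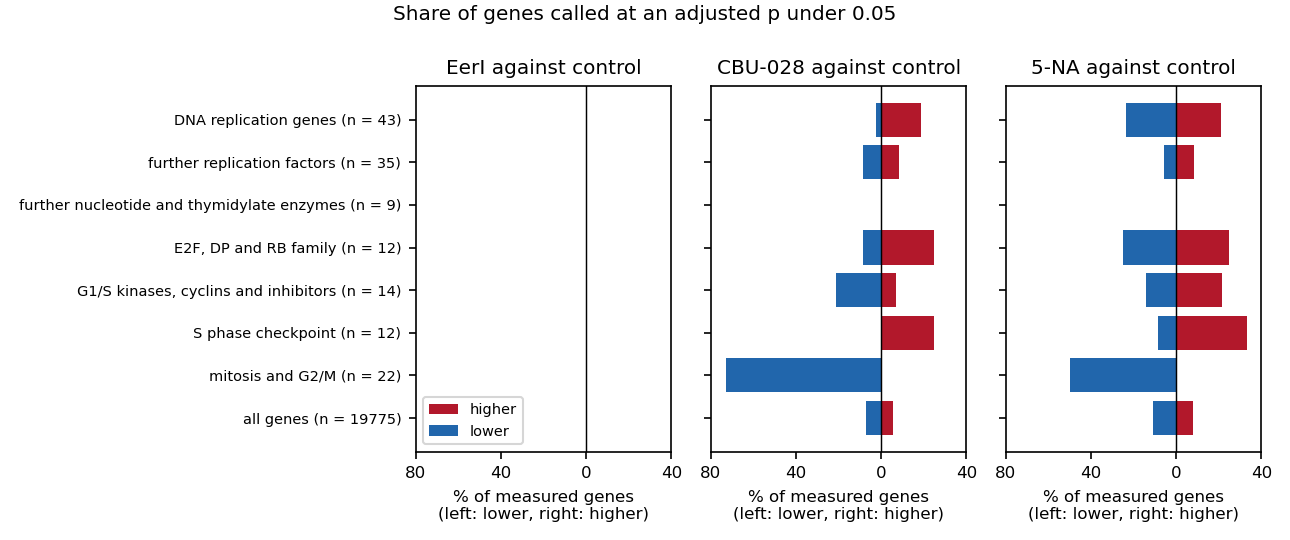
Bars give the percentage of measured genes of each list, and of all genes, called higher (right, red) or lower (left, blue) at an adjusted p under 0.05 from limma against control, for EerI, CBU-028 and 5-NA. The mitosis and G2/M list lies wholly on the lower side, while the replication genes lie on both sides with 5-NA and mostly on the higher side with CBU-028.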

How the data were processed

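RNA of 293T cells was hybridised to 8 Affymetrix arrays, 2 for each of 4 groups. The methods name another array of the HG-U133 family than the one whose probe sets the values carry (HG-U133 Plus 2.0). The authors deposited log2 values made with RMA, which corrects background, gives every array the same distribution by quantiles and summarizes the probes of a set; the labels also name Partek, and no version is given for either. Equal distributions hide any change shared by most genes. Platform annotation gave 41097 probe sets a single symbol, 1801 several and 11777 none, and only those with a single symbol were named.

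A model of 4 group means was fitted to all probe sets and all 8 arrays in R 4.3.3 with limma 3.58.1 (4 residual and 5.08 prior degrees of freedom), and its two-sided p-values were Benjamini-Hochberg adjusted over the 54675 probe sets of each of 6 comparisons. A call is an adjusted p under 0.05. Precision is limited by the number of arrays (median SE of the replication genes 0.0822), and an exact test of 2 arrays against 2 cannot give a p under 0.333. The unequal spread of the groups enters 1 pooled estimate, so tests of CBU-028 use a narrower spread than its own. Tests of EerI against control use a wider spread than that of either group.

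The members and lists were chosen with earlier results of these data known. Values of every array are given for the largest called changes (5 per compound against control, 3 per pair), for the member with the highest mean and that with the largest change in each role, and fold changes for up to 3 genes of each other list; further members were described after their values were seen. Role lists were described by counts with no test. Promoters came from the RefSeq table (GRCh38.p14). The alternatives were the ANOVA of the methods, fold thresholds, a floor of 5, leaving out probe sets ending in _x_at, the mean of all probe sets of a gene, another quantile normalization, a replicate block, centring on the median, the compared arrays alone, a trend in the prior variance, array weights, joint adjustment and each array left out; a crossed block and a fit without the Affymetrix control probe sets were chosen after seeing the data. The procedure was tested on simulated data. Figures were drawn with matplotlib.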

Additional observations from a re-analysis of the deposited data

Results flagged for a closer look

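RFC4 was the 1 gene of the set called in opposite directions by 2 compounds, lower with 5-NA and higher with CBU-028 against the same controls. The direct test of 5-NA against CBU-028 gave a log2 difference of -0.844 (adjusted p = 0.000931 from limma), with both 5-NA arrays below both CBU-028 arrays. RFC4 has a single probe set, so no second measurement of it was at hand. The call with CBU-028 against control was lost in 12 of 24 alternatives, among them the adjusted ANOVA of the methods, the replicate block, array weights and leaving out either control array, either EerI array or CBU-028 replicate 1. The direct difference stayed called in every fit that left out 1 array.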

How the results depend on the processing

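Counts of called replication genes are given as higher and lower. Against control, requiring 1.5-fold left 5 and 0 with 5-NA and 1 and 0 with CBU-028, and 2-fold, with the adjusted p or with the unadjusted ANOVA p of the methods, left 0 and 0 for both; between compounds, 1.5-fold left 5 and 1 for 5-NA against EerI, 1 and 3 for 5-NA against CBU-028 and 1 and 0 for CBU-028 against EerI, and 2-fold left 1, 0 and 0 higher and 0 lower in any pair. The adjusted ANOVA of the methods called 4 higher and 1 lower with CBU-028, the lower gene being POLD1 and not FEN1. It called 0 higher for CBU-028 against EerI, 5 for 5-NA against EerI and 3 for 5-NA against CBU-028. A trend in the prior variance gave 1 and 1 with EerI, 13 and 2 with CBU-028, 9 higher for CBU-028 against EerI and 17 lower for 5-NA against EerI. Array weights gave 1 and 1 with EerI, 4 higher with CBU-028, 1 higher for CBU-028 against EerI and 4 higher and 6 lower for 5-NA against CBU-028. Joint adjustment over the 6 comparisons gave 1 and 1 with EerI and 6 higher for CBU-028 against EerI. The compared arrays alone gave 1 and 0 with CBU-028, 0 for CBU-028 against EerI and 2 and 4 for 5-NA against CBU-028. Without probe sets ending in _x_at, 5 were higher with CBU-028 and 1 for CBU-028 against EerI, and CDT1 in 5-NA against EerI turned to -0.0281, on another probe set; the mean of all probe sets gave 2 lower with CBU-028 and 5 higher for CBU-028 against EerI. A floor of 5, another quantile normalization, median centring and a fit without the Affymetrix control probe sets kept each count within 1.5 times. Deviations of same-numbered arrays correlated from -0.146 to 0.146, which shows no pairing by replicate number but cannot exclude it. With the replicate block, 4 were higher with CBU-028 and 1 for CBU-028 against EerI, and a crossed block with the EerI numbers swapped called 7 and 2. Leaving out each array in turn gave, against control, 0 to 0 with EerI, 1 to 8 higher and 0 to 1 lower with CBU-028, and 5 to 10 higher and 4 to 14 lower with 5-NA; it gave 0 to 6 higher and 0 to 0 lower for CBU-028 against EerI, 6 to 10 higher and 6 to 14 lower for 5-NA against EerI, and 2 to 6 higher and 5 to 12 lower for 5-NA against CBU-028, with fewest without 5-NA replicate 1. The cause of these changes was not tested, apart from the stricter thresholds and fewer samples that some settings impose.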
